A study of Homo sapiens with 4 samples.

Results

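The peaks at 4 heat-shock and chaperone gene loci, HSPA8, DNAJB1, HSP90AB1 and HSPA5, were examined in chromatin immunoprecipitation sequencing (ChIP-seq) of Fra-1 and DDX5 in BT549 cells. Members were set by position: every listed peak that overlapped an hg19 window around one of the genes. The choice of windows was made with earlier results of these data known. The windows were chromosome 11, 122915000 to 122950000 (HSPA8), chromosome 19, 14615000 to 14655000 (DNAJB1), chromosome 6, 44200000 to 44235000 (HSP90AB1) and chromosome 9, 127985000 to 128015000 (HSPA5). They held 40 of the 57601 peaks in the 4 deposited lists. These were 20 of 30571 Fra-1 peaks called over input, 2 of 16133 Fra-1 peaks called over IgG, 18 of 10836 DDX5 peaks called over input and 0 of 61 DDX5 peaks called over IgG.

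BT549 is a human breast cancer cell line without oestrogen receptor alpha, grown here without treatment. The Fra-1 ChIP, the DDX5 ChIP, the ChIP with normal rabbit IgG and the input DNA (sonicated chromatin without immunoprecipitation) were 1 library each. Without replicates no difference could be tested. Shares carry 95% exact binomial intervals for counting error alone. These treat peaks as independent, although many lie close together at 1 locus. Absolute read depths are unknown. Fold enrichment and pileup, the depth of ChIP fragments at a summit, are the authors' values, and the fold divides the pileup plus 1 by the local level of the control library plus 1.

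Chaperones bind unfolded or partly folded proteins and keep them from aggregating. HSPA8 (Hsc70) is the cytosolic Hsp70 that most cells make constitutively, and it hosts small nucleolar RNA genes in its introns. DNAJB1 is an Hsp40 co-chaperone that delivers clients to Hsp70 and stimulates its ATPase, and it is strongly heat-inducible. HSP90AB1 encodes the constitutive cytosolic Hsp90, which matures kinases and steroid receptors. HSPA5 (BiP, GRP78) is the Hsp70 of the endoplasmic reticulum and a main target of the unfolded protein response. Stress induction of the cytosolic chaperones runs through HSF1 at heat shock elements, and that of HSPA5 through ATF6 at ER stress elements. Fra-1 (encoded by FOSL1) is a Fos-family subunit of AP-1, which binds DNA at TGAGTCA and TGACTCA. DDX5, an RNA helicase of the DEAD-box family, acts in RNA processing and as a transcriptional coactivator.

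Promoter sequences of the 4 genes are shown to set the elements of these pathways beside the binding data. All 4 genes matched RefSeq entries of build GRCh38.p14, with 1 start for HSPA8 and for HSPA5 and 3 each for DNAJB1 and HSP90AB1. The peaks are in hg19 and the 2 builds were not converted, so whether a promoter lay under a peak was not analysed here. Each line gives the 250 bases before a start, in the direction of transcription. Capitals mark heat shock elements, CRE, AP-1-like and ER stress matches. Only starts with such a match in these bases are shown. The first starts of DNAJB1 and HSP90AB1 held none of these matches.
HSPA8 (GRCh38.p14 chr11:123062137-123062386, minus strand): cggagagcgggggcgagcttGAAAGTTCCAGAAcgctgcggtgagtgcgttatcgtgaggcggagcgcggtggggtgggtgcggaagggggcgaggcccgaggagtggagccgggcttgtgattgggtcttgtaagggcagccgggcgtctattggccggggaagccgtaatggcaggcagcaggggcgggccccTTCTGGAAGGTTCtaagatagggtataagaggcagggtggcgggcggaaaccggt
DNAJB1, the second start (GRCh38.p14 chr19:14518398-14518647, minus strand): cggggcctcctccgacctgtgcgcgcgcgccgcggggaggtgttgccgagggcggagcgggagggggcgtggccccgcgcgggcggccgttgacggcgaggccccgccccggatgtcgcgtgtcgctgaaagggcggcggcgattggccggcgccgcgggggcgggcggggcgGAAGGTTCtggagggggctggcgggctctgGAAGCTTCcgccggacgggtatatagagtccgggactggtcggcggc
HSP90AB1, the second start (GRCh38.p14 chr6:44246851-44247100, plus strand): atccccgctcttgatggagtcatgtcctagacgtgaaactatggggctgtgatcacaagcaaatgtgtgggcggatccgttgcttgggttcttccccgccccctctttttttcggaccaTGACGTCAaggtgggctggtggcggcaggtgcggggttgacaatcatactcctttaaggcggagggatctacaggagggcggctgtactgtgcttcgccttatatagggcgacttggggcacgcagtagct
HSP90AB1, the third start (GRCh38.p14 chr6:44247693-44247942, plus strand): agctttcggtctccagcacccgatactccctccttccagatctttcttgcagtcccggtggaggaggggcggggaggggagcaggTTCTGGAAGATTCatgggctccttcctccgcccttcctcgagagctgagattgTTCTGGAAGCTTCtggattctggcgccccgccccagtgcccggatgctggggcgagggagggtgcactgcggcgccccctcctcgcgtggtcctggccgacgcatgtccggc
HSPA5 (GRCh38.p14 chr9:125241344-125241593, minus strand): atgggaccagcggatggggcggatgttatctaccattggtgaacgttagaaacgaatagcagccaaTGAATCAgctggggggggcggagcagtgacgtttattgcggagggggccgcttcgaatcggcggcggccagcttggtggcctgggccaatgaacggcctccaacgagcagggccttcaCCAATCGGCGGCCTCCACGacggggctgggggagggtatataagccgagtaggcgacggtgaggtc

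Motifs were searched on both strands of the 35116 RefSeq windows that run from 250 bases before to 50 after a start. The heat shock element was searched as GAANNTTC, held by 6.77% of all windows, and as TTCNNGAA, held by 7.74%. HSPA8 and the third start of HSP90AB1 each held 2 sites where both forms overlap in 1 run of 3 units, sharing a GAA or a TTC, which 0.490% of windows hold. In HSPA8 the runs began 230 and 55 bases before the start, and in HSP90AB1 165 and 112 bases before it. The second start of DNAJB1 had GAANNTTC at 77 and 47 bases before it and no run of 3 units, and the third start had GAANNTTC from base 2 of the transcribed side, outside the bases shown. AP-1 was searched as TGANTCA (7.71% of windows). HSPA5 alone among the 8 windows of the 4 genes held it, as TGAATCA at 184 bases before the start, which differs from both forms of the consensus at the central base. A full CRE (TGACGTCA, 1.85%) stood 131 bases before the second start of HSP90AB1. HSPA5 also held the ER stress element, CCAAT and CCACG with 9 bases between them, which 0.0769% of windows hold, at 66 bases before the start. The short forms overlap within these longer ones, and CCAAT and CCACG alone are common (34.6% and 38.1% of windows). A match describes letters and is not evidence of binding.

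Over input, both antibodies had peaks in all 4 windows, and the number differed widely between loci. The HSPA8 window held 8 Fra-1 and 7 DDX5 peaks, and the HSP90AB1 window also held 8 and 7. The HSPA5 window held 3 and 2, and the DNAJB1 window 1 and 2. Among 86652 consecutive windows of 35 kb along chromosomes 1 to 22 and X, 20.5% held a Fra-1 peak over input, 7.73% a DDX5 peak over input and 6.28% peaks of both. At least 8 Fra-1 peaks were held by 0.127% of them (110 windows), and at least 7 DDX5 peaks by 0.126% (109 windows). HSPA8 and HSP90AB1 were thus among the densest windows for both antibodies over input. These shares describe the loci and support nothing further, since the loci were chosen with earlier results known.

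**Figure D1:**
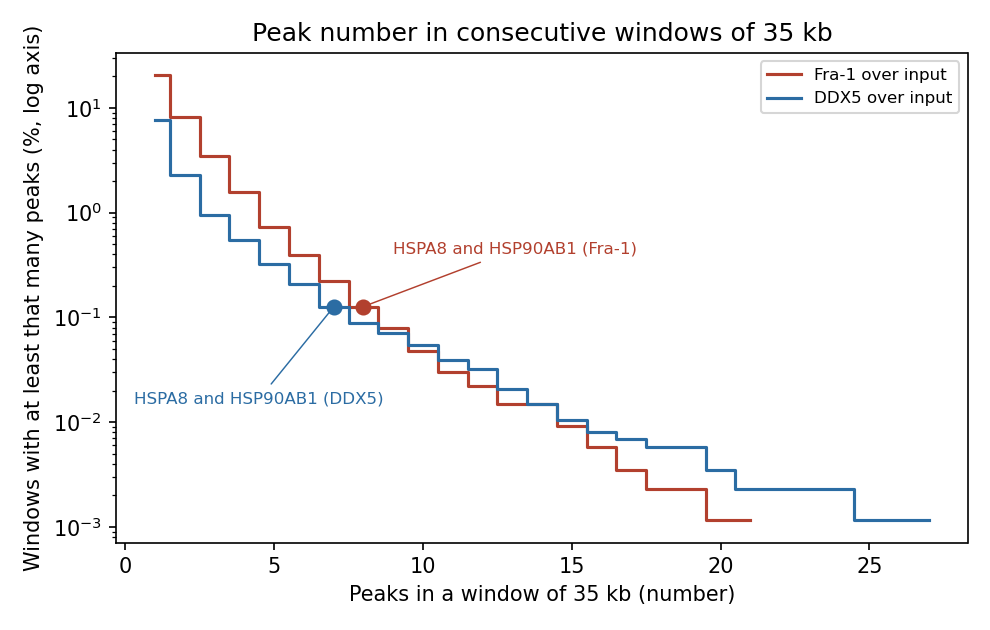
Share of consecutive windows of 35 kb (log axis) that hold at least a given number of peaks over input, for Fra-1 (red) and DDX5 (blue). Points mark the HSPA8 and HSP90AB1 windows, which held 8 Fra-1 and 7 DDX5 peaks each, numbers reached by 0.127% and 0.126% of windows.

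With IgG as the control nearly all of these peaks were missing. Of the 20 Fra-1 peaks over input, 2 were called again over IgG (10.0%, interval 1.23% to 31.7%), against 50.5% of all Fra-1 peaks over input. Both lay in the HSPA5 window. The 20 Fra-1 peaks over input were weaker than the list, with a median summit depth of 21.5 fragments against 30 and a median fold of 4.74 against 5.37. The share of the whole list was not matched for depth or fold. Of the 18 DDX5 peaks over input, 0 were called again (interval 0% to 18.5%), against 0.508% of all DDX5 peaks over input, a share too low for 18 peaks to show a difference. No peak over IgG of either antibody was listed in the HSPA8, DNAJB1 and HSP90AB1 windows. Of all 35 kb windows, 12.1% held a Fra-1 peak over IgG and 0.0577% a DDX5 peak over IgG. Across controls, a Fra-1 peak over IgG lay across 1 of 18 DDX5 peaks over input, at HSPA5 (5.56%, set beside 13.2% of the list), and 0 of 20 Fra-1 peaks over input overlapped a DDX5 peak over IgG (0.141% of the list).

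**Figure D2:**
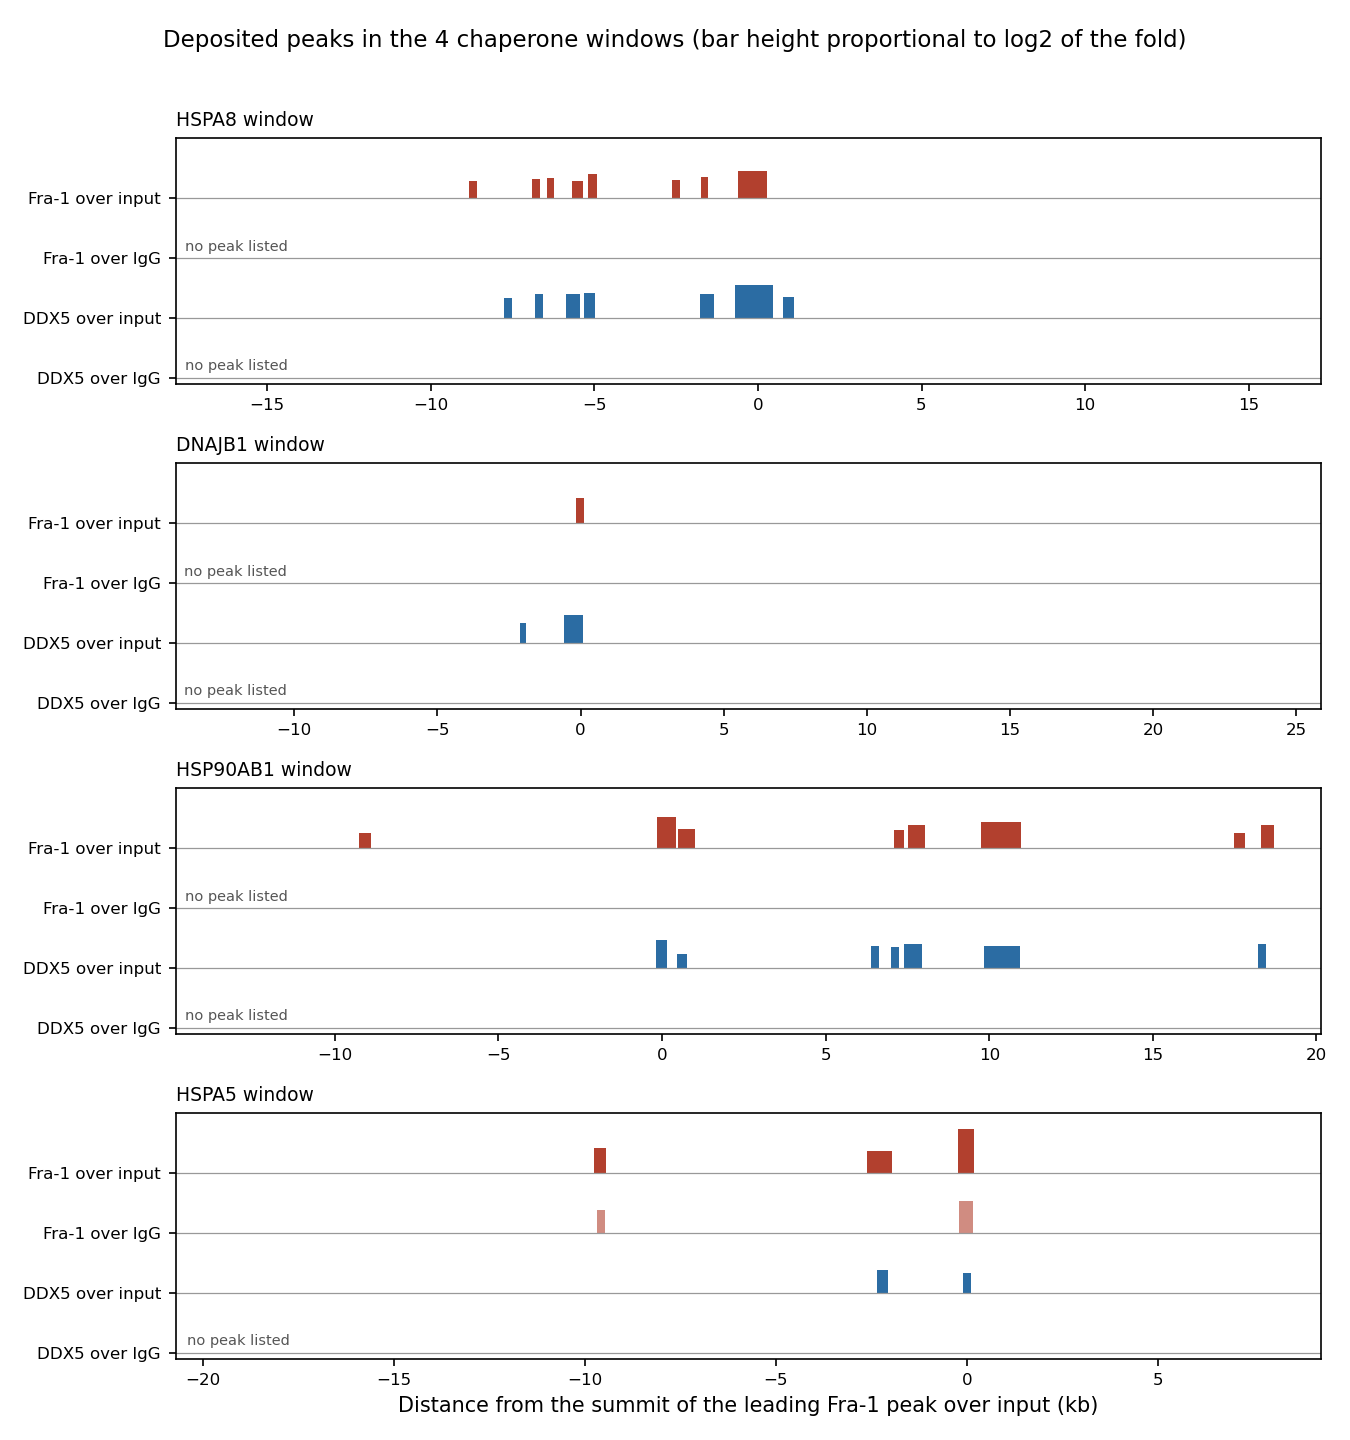
Position of every listed peak in the 4 windows, as distance in kb from the summit of the leading Fra-1 peak over input, which was 7.11-fold at HSPA8, 6.08-fold at DNAJB1, 9.24-fold at HSP90AB1 and 24.1-fold at HSPA5. Each row is a list, bars span the peaks and their height is proportional to log2 of the fold. Peaks over IgG (paler) stand in the HSPA5 window only, at the leading Fra-1 peak and at the one farthest from it.

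At HSPA8 the peaks lay close together. The 8 Fra-1 peaks over input spanned 9.11 kb (chromosome 11, 122923972 to 122933084) and the 7 DDX5 peaks 8.85 kb (122925040 to 122933892), within a window of 35 kb. The leading peak of both antibodies was also the widest. That of Fra-1 lay at 122932176 to 122933084 (909 bp), with a summit depth of 32 fragments in the Fra-1 library against a local input level of 3.64, a fold of 7.11. That of DDX5 lay at 122932083 to 122933252 (1170 bp), with a summit depth of 45 fragments in the DDX5 library against an input level of 3.19, a fold of 10.97. The summits were 79 bp apart. In its own list the DDX5 peak ranked 84th of 10836 by fold (the upper 0.775%), and 1.58% of the list was at least as wide. The Fra-1 peak ranked 10452nd of 30571 (the upper 34.2%).

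The other HSPA8 peaks formed a lower series on one side of the leading peak, apart from a single DDX5 peak at 122933548 to 122933892 (4.35-fold) on the other. The remaining 7 Fra-1 peaks were 204 to 349 bp wide, with summit depths of 15 to 24 fragments and folds of 3.31 to 5.62. Over the whole locus 5 of 8 Fra-1 peaks and 5 of 7 DDX5 peaks overlapped a peak of the other antibody, as did 21.8% of all Fra-1 and 61.8% of all DDX5 peaks over input. All 7 DDX5 peaks had folds above the median of their list (4.16), as did 49.9% of the list, and 2 of 8 Fra-1 peaks exceeded theirs (5.37). The lowest of the 7 DDX5 folds, 4.1584, was practically at the median of 4.1574. RefSeq places SNORD14C, SNORD14D and SNORD14E inside the HSPA8 gene and CLMP beside it. Which peaks lie on which of these genes was not analysed here. The nearest Fra-1 peak over input outside the window, 4.29 kb from its edge, was 13.9-fold and was listed over IgG at 7.60-fold, while the nearest DDX5 peak over input was 95.4 kb away.

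DNAJB1, the co-chaperone, had a single site shared by both antibodies. The Fra-1 peak over input lay at chromosome 19, 14628992 to 14629248, with a summit depth of 31 fragments against an input level of 4.26, a fold of 6.08. The DDX5 peak at 14628556 to 14629241 (686 bp) had a summit depth of 35 against an input level of 3.78, a fold of 7.54, and ranked 325th of 10836. Their summits were 5 bp apart, the closest of the 15 overlapping pairs in the 4 windows. The second DDX5 peak, at 14627040 to 14627239, was 200 bp wide, the shortest width in the list, and 4.14-fold, with no Fra-1 peak. On chromosome 19 as a whole 43.0% of 1093 Fra-1 peaks and 52.3% of 861 DDX5 peaks over input overlapped the other antibody. RefSeq lists GIPC1 and TECR next to DNAJB1, and TECR overlaps its span.

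At HSP90AB1 the peaks of both antibodies fell into separated groups. The leading Fra-1 peak over input lay at chromosome 6, 44214704 to 44215307, with a summit depth of 44 fragments against an input level of 3.87, a fold of 9.24 (the upper 24.2% of its list). The leading DDX5 peak lay at 44214695 to 44215028, with a summit depth of 32 against an input level of 3.43, a fold of 7.45 (the upper 3.14%). Their summits were 7 bp apart. Immediately beyond it a second pair was weaker, 4.08-fold for Fra-1 and 2.76-fold for DDX5, and the summits there were 451 bp apart.

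Further along the HSP90AB1 window, peaks recurred between 44221242 and 44222895 and again at 44224613 to 44225841. The Fra-1 peak that starts at 44224613 was 1229 bp wide, a width reached by 0.739% of the list, and 6.51-fold at a summit depth of 37 fragments. The DDX5 peak there, 44224710 to 44225795, was 1086 bp wide and 4.96-fold at a depth of 21, and the summits were 508 bp apart, the farthest of the 15 pairs. A last pair stood at 44233180 to 44233582 (Fra-1, 5.47-fold) and 44233083 to 44233328 (DDX5, 5.44-fold). In all 6 of 8 Fra-1 and 6 of 7 DDX5 peaks overlapped the other antibody, beside 21.8% and 61.8% of the whole lists. The 2 Fra-1 peaks without DDX5 had the lowest Fra-1 folds of all 4 windows, 2.97 and 3.08, and 6 of 7 DDX5 folds exceeded the list median. RefSeq lists SLC29A1, SLC35B2 and NFKBIE next to HSP90AB1, so the window may hold sites of other genes. The nearest peaks over input outside it were 120.1 kb (Fra-1) and 31.6 kb (DDX5) away.

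HSPA5, the ER chaperone, held the strongest Fra-1 peak of the 4 windows. The Fra-1 peak at chromosome 9, 128005507 to 128005901 had a summit depth of 140 fragments against an input level of 4.84, a fold of 24.1 (768th of 30571, the upper 2.51%). The next strongest, at HSP90AB1, was 9.24-fold. Over IgG it was listed at 128005535 to 128005892 with the same summit, a depth of 123.8 fragments scaled to the IgG library against an IgG level of 11, a fold of 10.4 (3605th of 16133, the upper 22.3%). It was the 1 of 2 HSPA5 peaks over IgG at 8-fold or more, as were 38.8% of that list. At this summit the IgG level was 2.57 times the input level brought to the same scale, a ratio for that position only. DDX5 had a peak of 208 bp inside the Fra-1 peak, at 128005625 to 128005832. Its depth was 31 fragments against an input level of 6.86, a fold of 4.07, below the DDX5 list median of 4.16. The summits were 45 bp apart. The 6.86 and the 4.84 at the Fra-1 summit are from lists that scale the input library differently, so they cannot be compared directly. The part of the input level in the DDX5 fold was not tested. The DDX5 peak stood in the upper 55.0% of its list.

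A second HSPA5 site had like folds for both antibodies but unlike ranks within their lists. By fold the Fra-1 peak stood in the upper 55.1% of its list and the DDX5 peak in the upper 22.1%. Fra-1 over input was 4.98-fold at 128003110 to 128003759 (depth 31 fragments, input level 5.42), and DDX5 was 5.02-fold at 128003378 to 128003659 (depth 29, input level 4.98). The summits were 9 bp apart, and neither antibody was listed there over IgG. The third site was of Fra-1 alone, at 127995964 to 127996278, with a depth of 46 fragments against an input level of 6.78, a fold of 6.04. It was listed over IgG at 127996033 to 127996260 and 5.21-fold, with an IgG level of 7.0, which was 1.17 times the scaled input level. The Fra-1 peaks listed over IgG were thus the strongest HSPA5 peak, with a DDX5 peak inside it, and one without DDX5. RefSeq lists RABEPK, HSPA5-DT and GAPVD1 beside HSPA5.

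**Figure D3:**
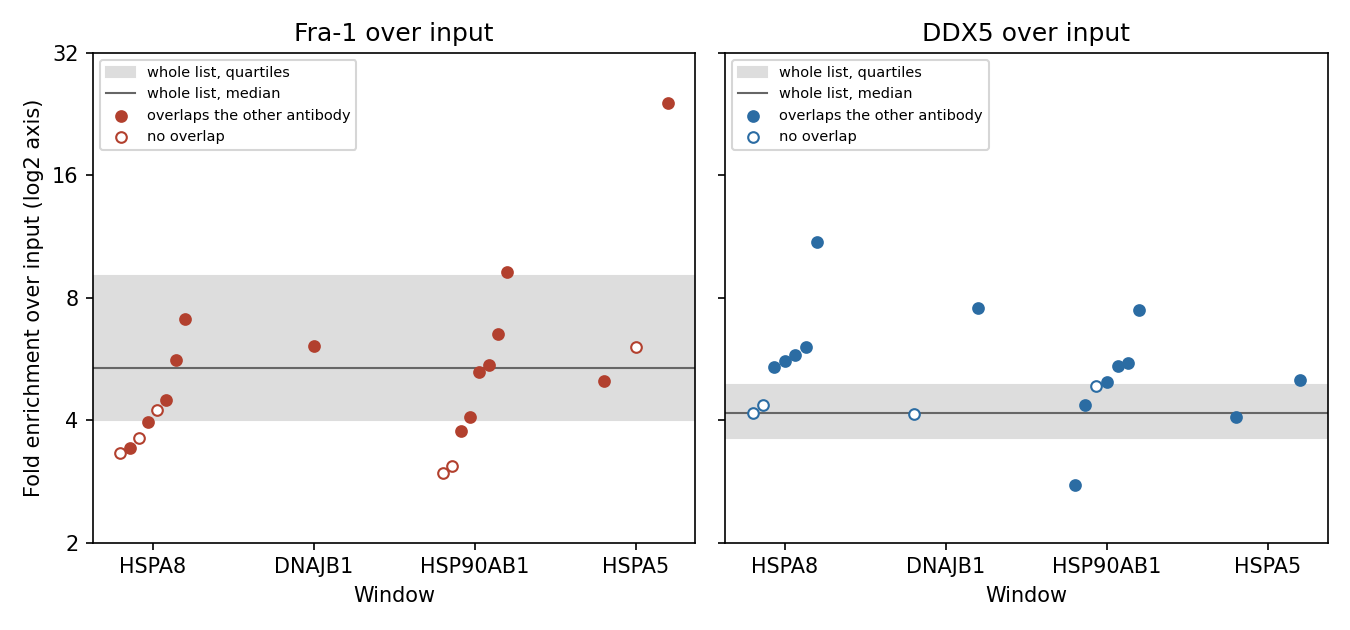
Fold enrichment over input (log2 axis) of every Fra-1 (left) and DDX5 (right) peak in the 4 windows, with filled points for peaks that overlap the other antibody. Grey bands and lines give the quartiles and medians of the whole lists (3.99, 5.37 and 9.03 for Fra-1, 3.61, 4.16 and 4.89 for DDX5); 15 of 18 DDX5 points and 8 of 20 Fra-1 points lie above the line of their list.

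Across the 4 windows the folds over input were set beside those of each whole list. The 18 DDX5 peaks had a median fold of 5.22 (range 2.76 to 10.97), against 4.16 in the whole list, and 15 of 18 exceeded that median, as did 49.9% of the list. Only the HSPA8 peak reached 8-fold (5.56%, against 2.28% of the list). The 20 Fra-1 peaks had a median fold of 4.74 (2.97 to 24.1), against 5.37 in the whole list, and 8 of 20 exceeded that median. The leading HSP90AB1 and HSPA5 peaks reached 8-fold (10.0%, against 29.5% of the list). Each list is ranked against itself, and the lists differ in length and library, so a difference between the antibodies was not tested.

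The local input level differed between the windows. Over the 20 Fra-1 peaks it had a median of 3.78 fragments, against 4.45 in the whole list, and over the 18 DDX5 peaks 3.31, against 3.83. The level exceeded the list median at all 3 Fra-1 and both DDX5 peaks of HSPA5, and at 4 of the 17 Fra-1 and 3 of the 16 DDX5 peaks of the other windows, as did 50% of each list. Read at the summits, the highest level at any of the 20 Fra-1 peaks was nevertheless at HSP90AB1, 7.74 at 44205606 to 44205955, against at most 6.78 at HSPA5. The lowest level was 3.02 in the Fra-1 list and 2.68 in the DDX5 list, so the lists scale the same input library differently. Input levels can therefore be compared directly only within a list. The level cannot fall below the background assumed for the genome, and 1 of 20 Fra-1 and 1 of 18 DDX5 peaks (5.0% and 5.56%) lay within 5% of that lowest value, against 18.6% and 21.7% of the whole lists. A lower divisor gives a higher fold at the same depth, and its part in the DDX5 folds was not tested.

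**Figure D4:**
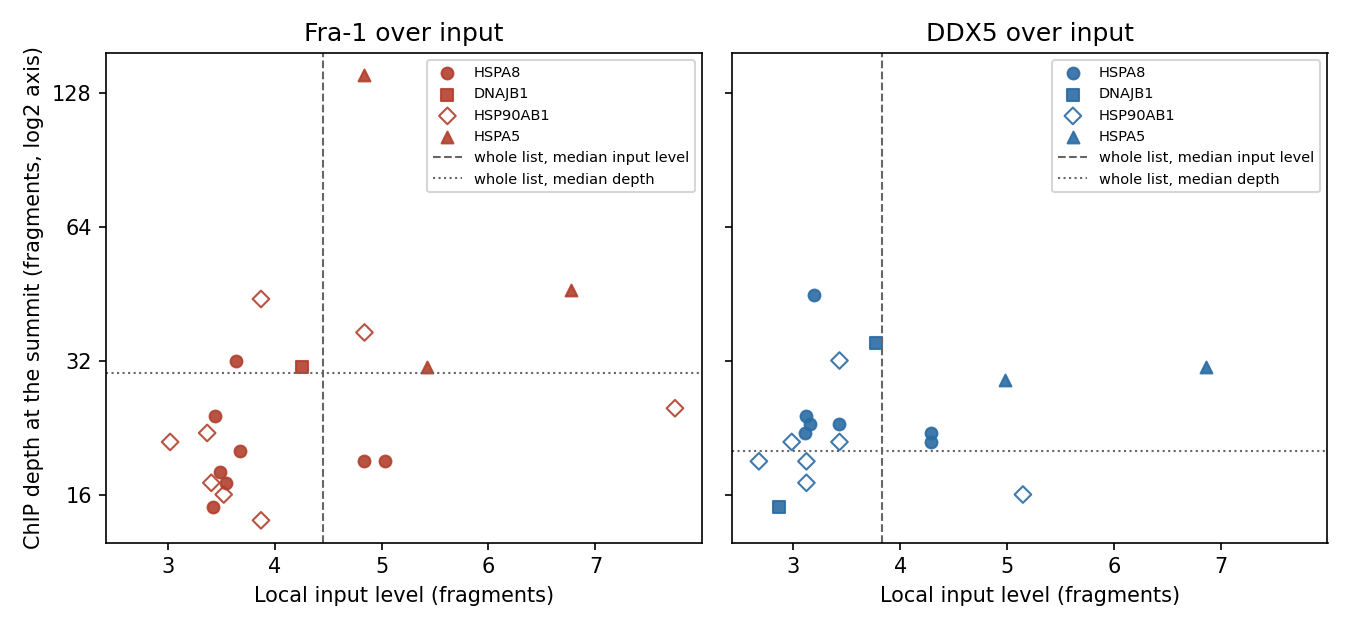
ChIP depth at the summit (fragments, log2 axis) against the local input level (fragments) for every Fra-1 (left) and DDX5 (right) peak over input, with symbols by window and lines at the medians of the whole lists. The HSPA5 Fra-1 peak with a depth of 140 stands apart, and the HSPA5 peaks (triangles) lie right of the median input level for both antibodies.

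Shared positions were frequent. In the 4 windows 14 of 20 Fra-1 peaks over input overlapped a DDX5 peak over input by at least 1 bp (70.0%, interval 45.7% to 88.1%), against 21.8% of all Fra-1 peaks. Of the 18 DDX5 peaks, 14 overlapped a Fra-1 peak (77.8%, 52.4% to 93.6%), against 61.8% of all DDX5 peaks, which lies inside the interval. HSPA8 and HSP90AB1 hold 16 of the Fra-1 and 14 of the DDX5 peaks, often as neighbours. The peaks are thus not independent, and neither difference from the whole list was tested. With the DDX5 peak of nearest summit as partner, the 14 Fra-1 peaks had summits a median of 75.5 bp from it, and 9 of 14 (64.3%) were within 100 bp, against a median of 72 bp and 60.6% within 100 bp for the 6650 common Fra-1 peaks of the whole list. Both lists share the input library as control. The 14 Fra-1 peaks with DDX5 had a median fold of 5.37, against 3.46 for the 6 without it. In the whole list the order was the opposite (4.75 with DDX5 and 5.64 without). The highest of the 6, 6.04-fold, lay at HSPA5, where the peaks with DDX5 were 4.98-fold and 24.1-fold. The others lay in the HSPA8 and HSP90AB1 windows, and the difference was not tested.

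HSPA8 and HSP90AB1 were also set beside all stretches dense with DDX5 peaks. At the 2 loci 11 of 16 Fra-1 peaks over input (68.8%) overlapped a DDX5 peak, against 600 of 818 (73.3%) in the 109 windows of 35 kb with at least 7 DDX5 peaks over input, which include the peaks of HSPA8 and HSP90AB1. Of the DDX5 peaks over input, 11 of 14 (78.6%) at the 2 loci overlapped a Fra-1 peak, against 608 of 1077 (56.5%) in the 109 windows. Of the Fra-1 peaks over input, 0 of 16 at HSPA8 and HSP90AB1 were called again over IgG, against 119 of 818 (14.5%) in the 109 windows, of which 64 held at least 7 Fra-1 peaks. Fra-1 folds above the list median made up 5 of 16 at HSPA8 and HSP90AB1, against 236 of 818 (28.9%) in the 109 windows, and DDX5 folds above theirs 13 of 14 (92.9%) at HSPA8 and HSP90AB1, against 588 of 1077 (54.6%) in the 109 windows.

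The lists give no IgG level where no peak over IgG was listed, but the p-values of the lists set a limit. The lowest −log10 p listed over IgG was 4.09 for Fra-1 and 5.86 for DDX5. If the p-value alone decided the listing, the leading HSPA8 peaks would have gone unlisted at an IgG level of at least 12.9 fragments (Fra-1) and 20.2 fragments (DDX5), which is 4.02 and 6.35 times the scaled input level there. The same ratio was 3.26 and 3.68 at the DNAJB1 pair, and 5.76 and 3.52 at the leading HSP90AB1 pair. Over all 18 Fra-1 and 18 DDX5 peaks not called again it ran from 1.03 to 5.76 and from 0.704 to 6.35. No listed peak was under 200 bp, so a narrow region could also have been dropped for its width, and these values are limits under that assumption and not measurements.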

How the data were processed

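Fra-1 ChIP, DDX5 ChIP, IgG ChIP and input DNA were 1 library each. Per the submitters' processing notes, CASAVA 1.8, Bowtie 0.12.9, HOMER and the build hg19 were used, with no role stated; the peak caller is not given in the sources used here. Each deposited list compares 1 ChIP with 1 control library. The signal the authors deposited for each peak is a pileup, per the file headers. It is a whole number over input, and over IgG the authors scaled it by 0.884 (Fra-1) and 0.998 (DDX5), from peaks with the same summit in both lists. The deposited fold enrichment is a ratio of pileup plus 1 to control level plus 1, from which the control level was computed. The 2 deposited −log10 columns have damaged headers. The first equals a Poisson upper tail of the pileup to a median difference of 6.22e-06 (Fra-1 over input), and the second, lower in 100% of rows, was taken as −log10 q.

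Peaks were compared by position (at least 1 bp). In each window the peak with the highest −log10 q of each list was named, and every peak over IgG. The windows, members and lists were chosen with earlier results of these data known. The 3-unit and ER stress motifs and the comparison with DDX5-dense windows were added after the values were seen. A planned list of other chaperone genes needs an hg19 annotation and was not run. The overlap code was tested on simulated data. The tools were Python 3.11.15, scipy 1.17.1, pandas 2.3.3, numpy 2.4.6 and, for figures, matplotlib 3.10.9.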

Additional observations from a re-analysis of the deposited data

How the results depend on the processing

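Of 57 alternatives, 41 stayed within the interval or within 1.5 times of the reported value, among them windows 10 kb longer or 5 kb shorter on each side. At 8-fold or more, 2 Fra-1 and 1 DDX5 peak over input and 1 Fra-1 peak over IgG were listed of 20, 18 and 2, and 6 Fra-1 peaks over input and 1 over IgG had a −log10 q at or above the list median. With IgG as control the counts were 2 and 0. The share of DDX5 peaks with Fra-1 became 50% with summits within 100 bp, 100% at 8-fold (1 peak) and 5.56% with Fra-1 over IgG. The share of Fra-1 peaks with DDX5 became 45% and 100% (2 peaks) in the same order, and 0.0% with DDX5 or both lists over IgG. At 8-fold, 50% of the Fra-1 peaks (1 of 2) were called again over IgG. The share of the whole list at 8-fold is not given here, and the 50.5% above covers peaks of any fold. The leading HSPA5 Fra-1 peak was 10.4-fold over IgG. Thresholds and stricter overlap rules lower counts by construction, and a count of 0, as for DDX5 over IgG, cannot fall further under them. Such alternatives are among the 41 and say nothing on stability. The cause of the other moves was not tested. DDX5 had no peak over IgG in the windows, so its overlap with both lists over IgG could not be computed. No paired analysis was possible because each antibody and control has 1 library. With at most 20 peaks a list, the intervals of the shares are wide.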
